A study of Sus scrofa with 3 samples.

Results

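The genes described here encode enzymes of glycolysis and lactate formation in visceral adipose tissue, and they were chosen by name: HK1, HK2, GPI, PFKL, PFKP, PFKM, ALDOA, PGK1, LDHA and LDHB. Of these 10 genes, 9 were analysed as mRNA genes, out of 22826 mRNA genes in the deposited values. ALDOA was not analysed here. The tissue was retroperitoneal fat of male Chinese Wuzhishan miniature pigs, which entered the study at 6 to 7 months of age and then ate a diet rich in fat and cholesterol for 12 weeks in every group. IM pigs were intact and had a skin incision only, CM pigs were castrated, and CMT pigs were castrated and injected each week with 10 mg/kg testosterone propionate in corn oil. Total RNA was mixed before sequencing, from 4 to 6 pigs per group by the sample labels and from 4 by the methods text. Each group is therefore 1 library, and the differences between libraries carry no replicate check within the sequencing. For PCK1, LEP, NCF1, S100A9, EMR1 and CD68, the paper also reports quantitative RT-PCR on the RNA samples used for sequencing. Its values carry standard errors within each group, and the paper describes changes in the same direction as in the sequencing. The enzyme genes chosen here were not among the genes it measured in that way.

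Glycolysis turns glucose into pyruvate in the cytosol. Hexokinase traps glucose in the cell as its phosphate, phosphoglucose isomerase and phosphofructokinase prepare it for cleavage by aldolase, and phosphoglycerate kinase is an ATP-forming step further down. Lactate dehydrogenase then interconverts pyruvate and lactate. In white fat the pathway also supplies glycerol phosphate for triglyceride and carbon for fatty acid synthesis, and fat cells release part of their glucose carbon as lactate. Many steps have several genes whose products are named for the tissue where they dominate, such as the muscle (PFKM), liver (PFKL) and platelet (PFKP) forms of phosphofructokinase.

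Levels are given in UQRPKM, reads per kilobase of gene relative to the upper quartile of each library, so that genes can be compared per length. The reads behind each value were recovered from the values, and 95% intervals come from those reads. They cover counting error only, not differences between pigs or between library preparations. The 3 libraries held 15106608 to 16611931 recovered reads. A gene was called higher or lower when its levels differed by at least 1.5 times and neither was under 1 UQRPKM. In bulk tissue, fewer cells of a type and less RNA per cell cannot be told apart.

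Markers of skeletal muscle, liver, macrophages and granulocytes, and mesothelium stood apart in the castrated libraries. Of 19 skeletal muscle markers with at least 1 UQRPKM in CM and CMT, 18 were called higher in CMT than in CM. The exception was CA3, carbonic anhydrase III, which was abundant in every library. Without CA3, which was set aside after its values were seen, the summed level of the other 28 markers was 166 (IM), 152 (CM) and 8249 (CMT) UQRPKM, and CKM, MB, TNNT3 and NEB were listed at 0 in all 3 libraries. In CMT, ACTA1, TNNC2, MYLPF and TNNC1 of the contractile apparatus led with 3589, 904, 645 and 597 UQRPKM. The 14 liver genes summed to 2572, 11381 and 1753 UQRPKM in IM, CM and CMT. APOA1, which was abundant in every library, made up most of the sums in IM and CMT, and without it, a choice made after its values were seen, the other 13 came to 33.2, 9042 and 38.6 UQRPKM. The 12 macrophage and granulocyte genes, with CD163 listed at 0 throughout, summed to 1464, 6031 and 1794 UQRPKM, and of the 11 that could be compared 8 were called higher in CM than in IM. The 7 mesothelial genes, with LRRN4 at 0 throughout, came to 127, 269.9 and 728 UQRPKM. The remaining lists moved less, with sums of 2606, 2189 and 2095 UQRPKM for 11 lymphocyte genes, 8648, 7702 and 8315 for 5 endothelial genes, 6222, 4598 and 4776 for 6 smooth muscle genes, and 4592, 4238 and 2364 for 3 erythrocyte genes. Adipocyte markers made the tissue recognisable as fat in each library, with sums of 143091, 135315 and 116617 UQRPKM over 11 genes, although CIDEA and RETN were listed at 0. Of the 9 adipocyte markers that could be compared, 8 were lower in CMT than in CM, with AQP7 and LEP called. LEP had 167, 502 and 156 UQRPKM in IM, CM and CMT, and was also called higher in CM than in IM.

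Of the 9 enzyme genes, HK2 and PFKP differed most between the libraries, by 1.84 and 1.44 times from the highest to the lowest, and HK2 alone reached the threshold for a call. In CM versus IM, 0 of 9 genes were called higher and 0 lower, where 8.38% of 14123 mRNA genes were called higher and 10.4% lower. In CMT versus CM, 0 of 9 were called higher and 1 of 9, HK2, was called lower, against 9.53% and 9.97% of 14098 mRNA genes. In CMT versus IM, again 0 of 9 were called in either direction, against 8.81% and 11.9% of 14151 genes. With 9 genes, a count of 0 or 1 lies near what those shares give, and nothing particular to the enzymes is read from it. The 9 enzymes all lay above 100 UQRPKM in every library. Above that limit, which was added after the values were seen, 4.12% of mRNA genes were called in either direction for CM versus IM, 5.24% for CMT versus CM and 6.55% for CMT versus IM. The median log2 ratio of the 9 genes was -0.10 for CM versus IM, -0.06 for CMT versus CM and -0.09 for CMT versus IM, beside -0.06, -0.02 and -0.08 over all mRNA genes with at least 1 UQRPKM. Summed over the 9 genes, the level was 26246 (IM), 26679 (CM) and 27817 (CMT) UQRPKM, a sum that LDHB dominates.

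**Figure D1:**
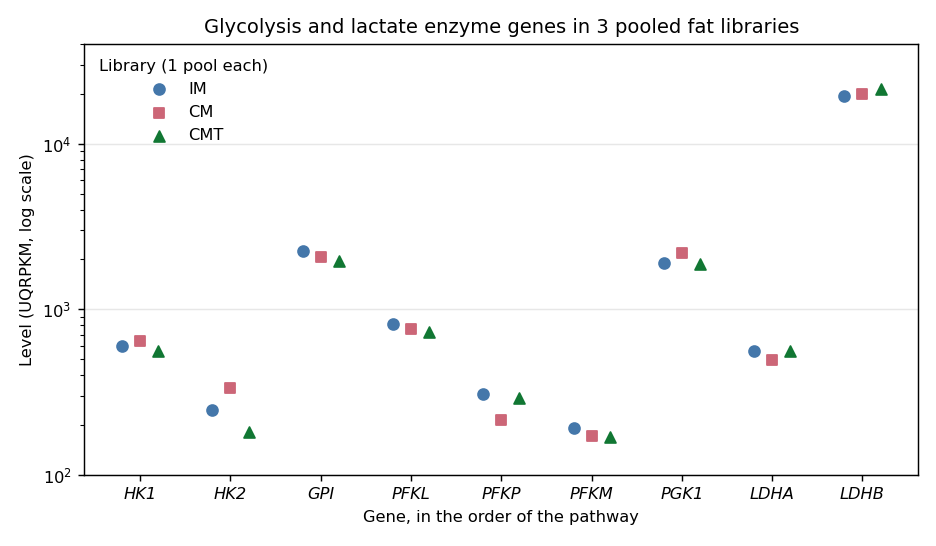
UQRPKM level (log scale) of the 9 enzyme genes in the order of the pathway, with 1 point for each pooled library and no error bars because there are no replicates. HK2 shows the widest gap, between 333 in CM and 181 in CMT, and LDHB stands far above the rest at 19384 to 21482.

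Of the steps that the 9 enzyme genes cover, hexokinase differed most between the libraries. HK1, the form bound to mitochondria in most tissues, had 598 (IM), 644 (CM) and 562 (CMT) UQRPKM. HK2, the insulin-responsive form of fat and muscle, had 246 (IM), 333 (CM) and 181 (CMT) UQRPKM, from 1144, 1474 and 823 reads. Both genes were thus highest in CM and lowest in CMT, HK2 more widely so, although HK1 in CMT came level with IM (log2 ratio 0.01) when the libraries were scaled by their median ratio. HK2 in CMT was 1.84 times lower than in CM, a log2 ratio of -0.88 (95% interval -1.01 to -0.76). Between CM and IM the log2 ratio of HK2 was 0.44 (0.32 to 0.55), and in CMT versus IM it was -0.45 (-0.58 to -0.32), so that IM lay between the castrated libraries and neither difference from IM reached 1.5 times. For HK1, the log2 ratio was 0.11 for CM versus IM and -0.20 for CMT versus CM. The HK2 difference between CMT and CM sets the library with the high muscle and mesothelial markers against another. In that other library the liver, macrophage and granulocyte markers were high. Of 9 adipocyte markers compared, 8 were lower in CMT than in CM. The part of any such RNA in the HK2 difference was not tested.

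As a share of the summed level of HK1 and HK2, HK2 made up 29.2% in IM (95% interval 27.7 to 30.6), 34.1% in CM (32.7 to 35.5) and 24.3% in CMT (22.9 to 25.8). These counting intervals do not overlap. HK1 stood above HK2 in every library, by 2.43 times in IM, 1.93 times in CM and 3.11 times in CMT. The sum of both was 845 (IM), 977 (CM) and 743 (CMT) UQRPKM, a spread of 1.31 times between the highest and the lowest library.

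Over 7392 mRNA genes that reached 50 UQRPKM in every library, those nearest to HK2 in their pair of log2 ratios, CM over IM and CMT over CM, were BOK, PENK and SAC3D1. BOK had 243, 330 and 176 UQRPKM in IM, CM and CMT, at a distance of 0.02 on the log2 scale. PENK lay at a distance of 0.04 and SAC3D1 at 0.07. Within a distance of 0.1 lay 12 genes, and likeness over 3 libraries is a description only.

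GPI encodes phosphoglucose isomerase, which converts glucose phosphate to fructose phosphate. It had 2255 (IM), 2061 (CM) and 1965 (CMT) UQRPKM. Its log2 ratio was -0.13 for CM versus IM, -0.07 for CMT versus CM and -0.20 (95% interval -0.25 to -0.14) for CMT versus IM. The 3 libraries lay within 1.15 times of each other, although the counting interval of each ratio left out 0.

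Phosphofructokinase commits sugar to glycolysis, and PFKP was the gene of its 3 that differed most between libraries. PFKP had 308 (IM), 214 (CM) and 292 (CMT) UQRPKM, from 795, 526 and 740 reads. It was therefore low in CM alone, 1.44 times below IM and 1.37 times below CMT. The log2 ratio was -0.53 (95% interval -0.69 to -0.37) for CM versus IM and 0.45 (0.29 to 0.62) for CMT versus CM, so that both values missed the threshold of 1.5 times while both intervals reached past it. In CMT versus IM the ratio of PFKP was -0.07 (-0.22 to 0.07), with 0.03 under scaling by the median ratio, and a difference was not detectable at this depth. PFKL had 810.0, 757 and 725 UQRPKM in IM, CM and CMT, with log2 ratios of -0.10 for CM versus IM and -0.06 for CMT versus CM.

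PFKM, the muscle form, had 192 (IM), 172 (CM) and 169.7 (CMT) UQRPKM, from 655, 559 and 566 reads. Its log2 ratio in CMT versus CM was -0.02 (95% interval -0.19 to 0.15) and in CMT versus IM -0.18 (-0.35 to -0.02). PFKM was thus not called higher in the library with the muscle markers, with a difference of -2.62 UQRPKM between CMT and CM that changed sign, to a log2 ratio of 0.01, under scaling by the median ratio.

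PFKL was the leading phosphofructokinase gene in each library, at 61.8% (IM), 66.2% (CM) and 61.1% (CMT) of the summed level. The share of PFKP was 23.5% (95% interval 22.1 to 24.9) in IM, 18.7% (17.3 to 20.1) in CM and 24.6% (23.2 to 26.1) in CMT, and the interval of CM lay below the others. PFKM held 14.7%, 15.1% and 14.3%, with overlapping intervals. The summed level of the step was 1310.2 (IM), 1143 (CM) and 1187 (CMT) UQRPKM.

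**Figure D2:**
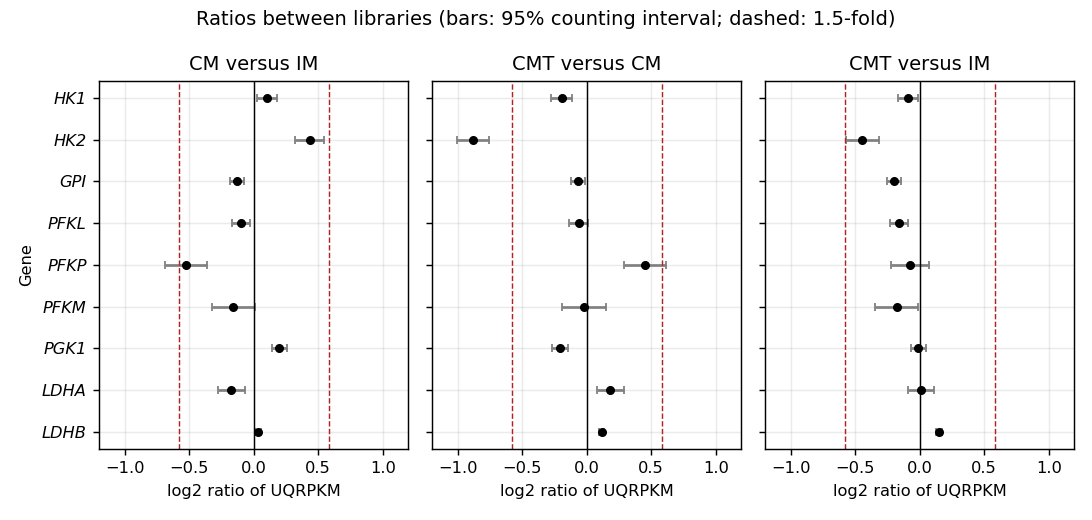
log2 ratio of UQRPKM for each of the 9 enzyme genes in the 3 comparisons, with 95% counting intervals as bars and dashed lines at 1.5 times. HK2 in CMT versus CM, at -0.88, is the only point beyond a dashed line, and PFKP in CM versus IM, at -0.53, comes close to one.

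PGK1, phosphoglycerate kinase, makes ATP after the sugar has been cleaved. It had 1896 (IM), 2174 (CM) and 1881 (CMT) UQRPKM. Like HK2 it was highest in CM, but by far less, with log2 ratios of 0.20 (95% interval 0.14 to 0.26) for CM versus IM and -0.21 (-0.27 to -0.15) for CMT versus CM. In CMT versus IM the ratio was -0.01 (-0.07 to 0.05), and 0.09 under scaling by the median ratio.

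Lactate dehydrogenase is a tetramer of LDHA chains, which dominate in skeletal muscle, and LDHB chains, which dominate in heart. LDHA had 556 (IM), 493 (CM) and 559 (CMT) UQRPKM. Its log2 ratio was -0.17 (95% interval -0.28 to -0.07) for CM versus IM, 0.18 (0.08 to 0.29) for CMT versus CM and 0.01 (-0.09 to 0.11) for CMT versus IM. LDHB had 19384 (IM), 19831 (CM) and 21482 (CMT) UQRPKM, above 99.7% of the expressed mRNA genes in each library. Its log2 ratio was 0.03 for CM versus IM, 0.12 for CMT versus CM and 0.15 (0.13 to 0.17) for CMT versus IM. Both genes were higher in CMT than in CM by less than 1.5 times.

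LDHB thus exceeded LDHA by 34.8 times in IM, 40.2 times in CM and 38.4 times in CMT, and took 97.2%, 97.6% and 97.5% of the summed level of both genes. The LDHB value is uncertain in its source. A second deposited gene, LOC102161427, carries the identifier that RefSeq (Sscrofa11.1) also names LDHB, and RefSeq lists a further LDHB gene under another identifier. Which of them the values deposited as LDHB stand for is not stated. How reads that match several genes were treated is not given in the sources used here, so the reads of these copies may be split. LOC102161427 had 8805 (IM), 8379 (CM) and 9581 (CMT) UQRPKM. It was likewise highest in CMT, with log2 ratios of -0.07 for CM versus IM and 0.19 for CMT versus CM, but differed from LDHB in the sign of CM versus IM. With both LDHB genes summed, the share of LDHB was 98.1%, 98.3% and 98.2%.

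**Figure D3:**
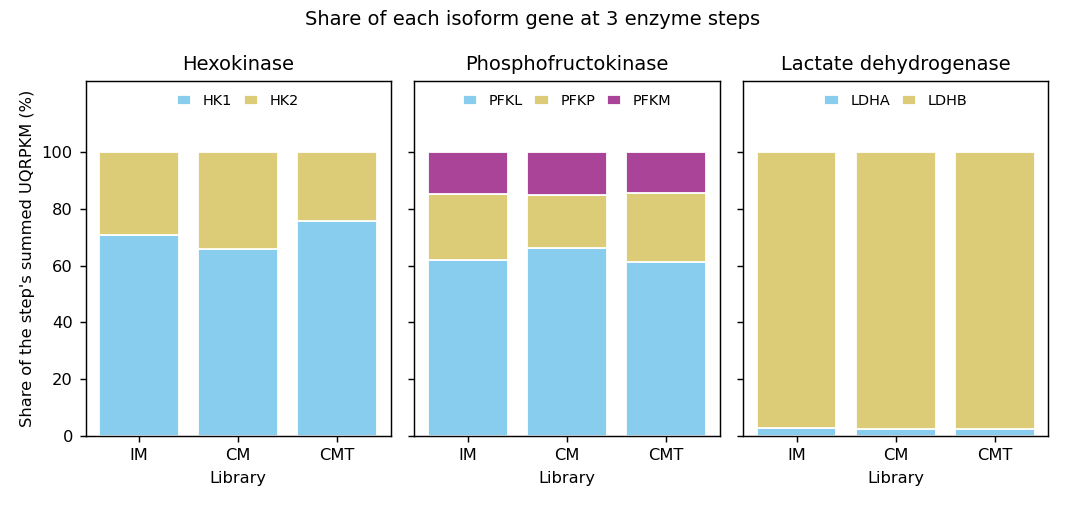
Percent of the summed UQRPKM of an enzyme step that each isoform gene held in the 3 libraries, as stacked bars from 0 for hexokinase, phosphofructokinase and lactate dehydrogenase. The HK2 part is widest in CM at 34.1%, the PFKP part is narrowest in CM at 18.7%, and LDHB fills at least 97.2% of each lactate dehydrogenase bar.

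The order of the levels was nearly the same in each library. LDHB stood highest, followed by GPI and PGK1, then PFKL, HK1, LDHA and the lowest group of PFKP, HK2 and PFKM. PGK1 and GPI had overlapping counting intervals in CM and in CMT, as did HK1 and LDHA in IM and in CMT. HK2 and PFKM overlapped in CMT, where PFKM ranked lowest as in the other libraries. PFKP stood above HK2 in IM and CMT and below it in CM. The median ratio between the highest and the lowest library was 1.15 times over the 9 enzymes and 1.22 times over the 5237 mRNA genes with at least 100 UQRPKM in every library.

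The other genes of glycolysis included larger differences, and these lay in isoforms of other tissues or of myeloid cells. Of 18 further glycolysis genes analysed, 13 reached 1 UQRPKM in both libraries of each comparison, and of these 1 was called higher and 1 lower in CM versus IM, 2 higher and 2 lower in CMT versus CM, and 2 higher and 0 lower in CMT versus IM. The main genes of the lower pathway were not among them, and they are given here for their role, after their values were seen. TPI1, triosephosphate isomerase, had 3699, 3723 and 3721 UQRPKM in IM, CM and CMT. GAPDH had 10326, 13512 and 12063, ENO1 6789, 5669 and 5493, PGAM1 2667, 2698 and 2299, and PKM, pyruvate kinase, 1437, 1072 and 1155. ALDOC, an aldolase gene, was the most abundant of the 18 at 30659, 25864 and 24786 UQRPKM.

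The muscle forms of enolase and phosphoglycerate mutase were called higher in CMT. ENO3 had 50.3 (IM), 53.9 (CM) and 770.1 (CMT) UQRPKM, with a log2 ratio of 3.84 (95% interval 3.59 to 4.09) for CMT versus CM. PGAM2 had 12.3, 2.59 and 235 UQRPKM, from 15, 3 and 280 reads, and its ratio in CMT versus CM was 6.50 (4.94 to 8.79). It was also called lower in CM than in IM, on those few reads. PYGM, the muscle glycogen phosphorylase, had 75.4, 57.9 and 449 UQRPKM and a ratio of 2.95 (2.76 to 3.16) for CMT versus CM. These genes were high in the library in which the muscle markers were high, whereas PFKM was not, and LDHA differed between CMT and CM by 66.4 UQRPKM, compared with 716 for ENO3. The part of muscle RNA in these levels was not tested. ENO1 exceeded ENO3 by 135 times in IM, 105 times in CM and 7.13 times in CMT.

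HK3 was high in CM. HK3, a hexokinase of myeloid blood cells, had 34.0 (IM), 84.1 (CM) and 36.3 (CMT) UQRPKM. Its log2 ratio was 1.31 (95% interval 1.05 to 1.57) for CM versus IM and -1.21 (-1.47 to -0.96) for CMT versus CM. The highest macrophage and granulocyte markers in CM were S100A12, S100A8, S100A9 and CD14, at 2449, 1272, 1157 and 395 UQRPKM. The S100 genes were called higher in CM than in IM, as were NCF1 and LYZ. So were the macrophage genes EMR1, MARCO and CD68, the last deposited as LOC100520753, at log2 ratios of 1.04, 1.17 and 1.31. The macrophage genes CD14, CSF1R and MRC1 were not called, at log2 ratios of 0.02, -0.22 and -0.06. The part of such RNA in the HK3 level was not tested.

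**Figure D4:**
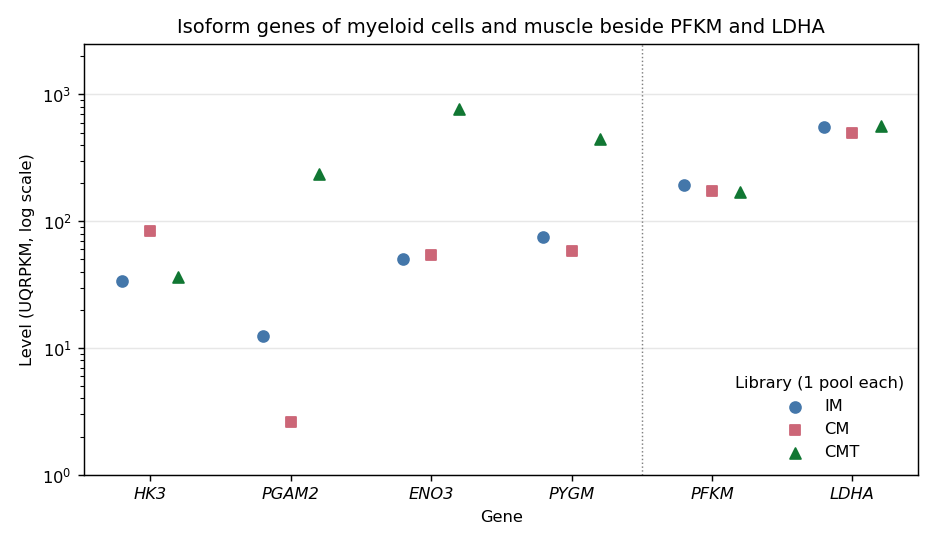
UQRPKM level (log scale) of isoform genes of myeloid cells (HK3) and muscle (PGAM2, ENO3, PYGM) in the 3 libraries, with PFKM and LDHA to the right of the dotted line. ENO3 lies at 53.9 in CM and at 770.1 in CMT, while PFKM lies between 169.7 and 192 in all 3 libraries.

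The supply of glucose and the handling of lactate were followed in 13 genes, of which 11 could be compared. In CM versus IM 1 was called higher and 3 lower, in CMT versus CM 3 higher and 2 lower, and in CMT versus IM 1 higher and 1 lower. SLC2A4, the insulin-regulated glucose transporter GLUT4, had 161 (IM), 268 (CM) and 119.5 (CMT) UQRPKM. As for HK2, which phosphorylates the glucose that enters, the order was CM, IM, CMT. Its log2 ratio was 0.74 (95% interval 0.58 to 0.89) for CM versus IM and -1.16 (-1.33 to -0.996) for CMT versus CM, and both were called. SLC2A1, the transporter GLUT1, had 172, 149 and 233 UQRPKM and was called higher in CMT than in CM, and it was named after its values were seen. SLC2A8 was called lower in CM than in IM, at 12.5 against 20.7 UQRPKM from 35 and 61 reads.

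HCAR1, deposited as GPR81, is the lactate receptor of adipocytes that restrains lipolysis. It had 884 (IM), 492 (CM) and 854 (CMT) UQRPKM. It was called lower in CM versus IM at a log2 ratio of -0.84 (95% interval -0.98 to -0.71) and called higher in CMT versus CM at 0.79 (0.66 to 0.93). CMT and IM differed by -0.05 (-0.16 to 0.06). The receptor was therefore low in CM alone, as PFKP was. LDHD, which acts on D-lactate in mitochondria, had 260.4, 317 and 128 UQRPKM and was called lower in CMT than in either other library. SLC16A3, a lactate exporter, had 9.002, 5.86 and 13.9 UQRPKM from 29, 18 and 44 reads, and was called in each comparison, lowest in CM and highest in CMT, although its counting intervals relative to IM included 0 and both calls relative to IM were lost with a pseudocount of 1. SLC16A1, the most abundant monocarboxylate transporter gene of the list and named after its values were seen, was not called, at 532, 569 and 448 UQRPKM.

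At the entry of pyruvate into mitochondria, 1 of 13 genes was called higher in each comparison with IM, and 0 were called in CMT versus CM. That gene was PDK1, a kinase that switches off pyruvate dehydrogenase. PDK1 had 183 (IM), 291 (CM) and 277 (CMT) UQRPKM, with log2 ratios of 0.67 (95% interval 0.55 to 0.78) and 0.60 (0.48 to 0.71) relative to IM. It was high in both castrated libraries, a pattern that none of the 9 enzymes reached at 1.5 times. Of the 6 genes that set the level of fructose bisphosphates, 0 were called in any comparison, although PFKFB1 passed the threshold in CMT versus IM, at a log2 ratio of 0.64, under scaling by the median ratio. Of 5 genes of gluconeogenesis and glyceroneogenesis, PCK1, which makes phosphoenolpyruvate, was called lower in CM than in both other libraries, at 5402, 3377 and 5326 UQRPKM. GPD1, which makes glycerol phosphate from a glycolytic intermediate, was called lower in CMT than in both other libraries, at 7876, 7479 and 4925 UQRPKM. Its log2 ratio of -0.60 in CMT versus CM lay just past the threshold and missed it under each of the 3 other scalings, at -0.57 to -0.58, and that in CMT versus IM missed it under scaling by the median ratio, at -0.58.

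Of 11 glycogen genes, 3 were called lower and 0 higher in CM versus IM, beside 10.4% and 8.38% over all mRNA genes. The 3 were GYS2, the liver form of glycogen synthase, PGM2 and PHKG1, deposited as PHGK, the last lost under scaling by the median ratio, at a log2 ratio of -0.54. GYS2 had 80.7, 44.3 and 15.0 UQRPKM in IM, CM and CMT and was called lower in every comparison, down to a log2 ratio of -2.43 (95% interval -2.86 to -2.02) for CMT versus IM. In CMT versus CM, 2 of 11 glycogen genes were called higher, PYGM and PHKA1, the last on 3 and 9 reads with an interval that included 0, and GYS2 was called lower. The same genes were called in the same directions in CMT versus IM. In the pentose phosphate pathway, which branches off after hexokinase, TALDO1 was called lower in CMT than in CM and was the only 1 of 7 genes called in any comparison. It had 8816, 11570.2 and 6609.5 UQRPKM, the order CM, IM, CMT of HK2 again.

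Several glycolytic genes are known targets of the hypoxia response, so 11 genes of that response were followed. In CM versus IM, EPAS1 and VEGFA were called lower and EGLN3 higher, the last from 10 and 19 reads with an interval that included 0. VEGFA had 1083, 576 and 867 UQRPKM in IM, CM and CMT and was called higher in CMT versus CM, where EGLN3 was called lower from 19 and 13 reads, a call lost under every other scaling. EPAS1 had 3417, 2243 and 2236 UQRPKM and was called lower in both castrated libraries, at log2 ratios of -0.61 and -0.61. In CM versus IM, its ratio missed the threshold under scaling by the median ratio, at -0.54. It also did so under scaling by the total without muscle, liver and 10-fold genes, at -0.58. In CMT versus IM, the EPAS1 ratio missed the threshold under each of the 3 other scalings, at -0.51 to -0.57. In CMT versus IM, P4HA1 was called higher, at 304 against 183 UQRPKM, and it also passed the threshold in CMT versus CM under each of the 3 other scalings, at log2 ratios of 0.60 to 0.61. HIF1A, the hypoxia-regulated transcription factor gene, was not called, at 182, 202 and 229 UQRPKM, and was named after its values were seen.

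Over the 66 other genes of glucose and pyruvate metabolism that could be compared, leaving out the hypoxia genes, 3 were called higher and 8 lower in CM versus IM, which is 4.55% and 12.1%. In CMT versus CM, 8 were higher and 7 lower, or 12.1% and 10.6%, and in CMT versus IM 6 were higher and 3 lower, or 9.09% and 4.55%. Beside the shares over all mRNA genes given above, these counts single out no direction, and the comparisons share libraries with each other.

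**Figure D5:**
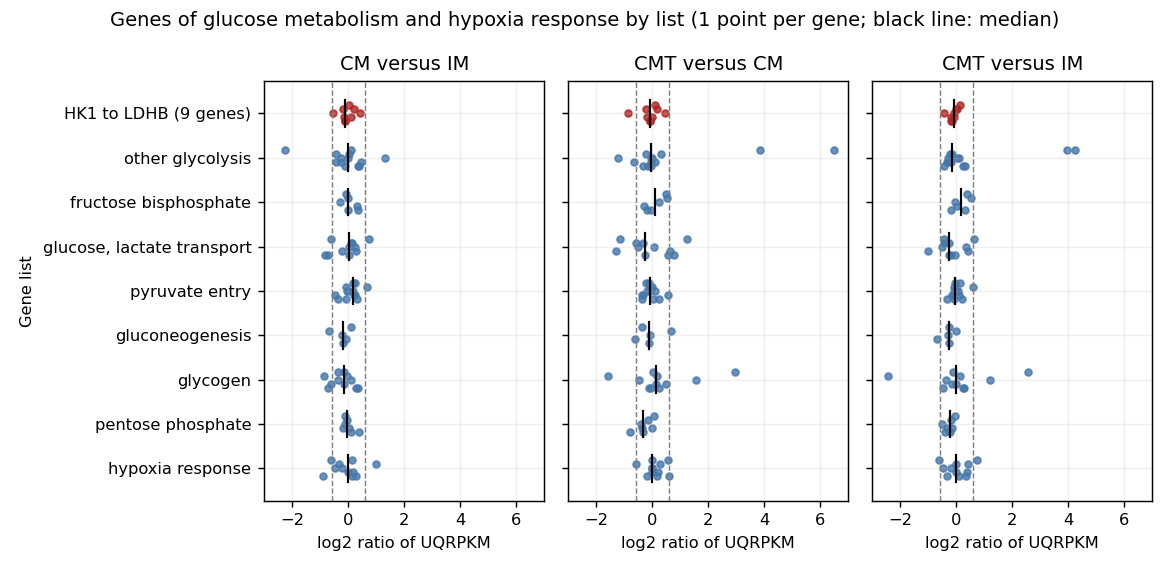
log2 ratio of UQRPKM for every compared gene of 9 lists in the 3 comparisons, with 1 point for each gene, a black line at the median of each list and dashed lines at 1.5 times. The 9 enzymes (top row) lie between -0.88 and 0.45, while PGAM2 at 6.50 and ENO3 at 3.84 stand far to the right in CMT versus CM.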

How the data were processed

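RNA-Seq values of 3 libraries, 1 for each of IM, CM and CMT, were assigned by their sample titles. The authors removed adaptors and poor reads, aligned the rest by MapSplice to Sscrofa10.2, and deposited RPKM values scaled by the upper quartile (UQRPKM) for 34570 genes. The counter and the treatment of reads that match several genes are not given in the sources used here. For each of the 20838 genes above 0 in any library, reads were taken at the smallest gene length, up to 120000 bases, that made all of its values whole (largest relative error 7.65e-09), so reads sharing a common factor are underestimated and their intervals too wide. The recovery and the calls were tested on simulated data.

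Ratios of UQRPKM have no pseudocount. The study's thresholds (1.5 times, at least 1 UQRPKM in both libraries) were used without its test, since a test on 2 libraries does not compare conditions. Intervals of ratios and shares are exact Clopper-Pearson, those of levels exact Poisson, at 95%. The members and gene lists were chosen with earlier results of these data known. Named were the 9 members, the genes called in each list (up to 4 per list and comparison), the 4 highest markers of a list where they stand beside a result, and the 3 genes nearest to a called member. Some listed genes enter the counts and are not reported here by name. Of 215 listed symbols, 178 matched by symbol and 15 by RefSeq gene ID or synonym. Python 3.11.15, SciPy 1.17.1 and pandas 2.3.3 were used.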

Additional observations from a re-analysis of the deposited data

How the results depend on the processing

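No paired analysis was possible because each group is 1 library without a replicate number, and for the same reason no replicate could be left out. Scaling by total UQRPKM, by the median ratio or by the total without muscle, liver and 10-fold genes, a pseudocount of 1, other minimum levels and a required counting interval left 1 member called in CMT versus CM and 0 in each comparison with IM. A threshold of 2 times lowered the count in CMT versus CM to 0, since HK2 differed by 1.84 times. The median log2 ratio of the members in CMT versus IM moved from -0.09 to 0.00877 under scaling by the median ratio, which adds 0.0994 to every ratio of that comparison. Of 108 member ratios under the scalings and the pseudocount, 13 left their counting interval and 7 changed sign, all of them ratios within 0.10 of 0 (PFKM in CMT versus CM, and HK1, PFKP and PGK1 in CMT versus IM). Shares taken from reads instead of levels per length put PFKL at 69.9%, 73.4% and 69.3% in IM, CM and CMT, PFKP at 16.5%, 12.9% and 17.4%, LDHB at 95.8%, 96.4% and 96.2%, and PFKM at 13.6% in IM and 13.7% in CM. Adding the second LDHB gene, chosen after seeing the data, gave 98.1%, 98.3% and 98.2%. CM versus IM is the comparison without the library with high muscle markers, and CMT versus IM that without the library with high liver markers. Among the other pathway genes, calls near the threshold changed with the scaling or the pseudocount for EPAS1, GPD1, EGLN3, PHKG1, SLC16A3, SLC2A8, P4HA1 and PFKFB1, an alternative added after seeing the data.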
